A study of Mus musculus with 5 samples.

Results

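Transcripts of histone genes were examined in erythroid cells of mouse bone marrow. Members were all genes with a probe set of their own whose symbol is that of an H1, H2A, H2B, H3 or H4 histone or a macroH2A, which gave 49 of the 22180 genes measured. Of these, 25 are clustered replication-dependent genes, 7 are replacement variants and 16 are expressed mainly in germ cells. The remaining match, Macroh2a3, is annotated as a transcribed pseudogene and was left out. All values are log2 expression values on whole-transcript arrays, and differences are in log2 units, Polg mutant minus WT.

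There were 3 Polg mutant arrays (Polgtm1Lrsn mt/mt) and 2 WT arrays (Polgtm1Lrsn wt/wt), all from mice on a C57BL/6 background. The mutant allele encodes a proofreading-deficient mitochondrial DNA polymerase, and these animals are known as mtDNA-mutator mice. Both parents of every mouse were Atg7 flox/flox and PolG wt/mt, and the father carried 1 Epo-cre allele (Epo-cre ki/wt). Floxed Atg7 was therefore shared by both groups, while the labels used here leave the Cre genotype of each mouse unstated. The series' design text calls the mice phlebotomized and its title calls the mutants aged, but neither a bleeding schedule nor an age was given there. CD45-bearing cells had been depleted and Ter119-bearing cells then selected. Whether each array stands for its own animal is unstated, so each p-value reflects array-to-array spread alone, which may be technical.

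A nucleosome wraps DNA around a core of histones H2A, H2B, H3 and H4, and the linker histone H1 binds where the DNA enters and leaves. Replication-dependent histone genes lie in clusters, are switched on in S phase and give mRNAs that end in a stem-loop in place of a poly(A) tail. Replacement variants are encoded by separate genes, mostly polyadenylated, and enter chromatin also outside S phase. Erythroblasts divide rapidly, then condense their chromatin and expel the nucleus, so histone supply belongs to the dividing stages of this lineage.

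Upstream sequences are shown for 5 members to let the clustered genes be set beside a replacement variant. The 150 bases before the annotated start are given 5′ to 3′ on the gene's strand, from RefSeq on GRCm38.p6. Capitals mark the octamer ATTTGCAT, the TATA box TATAAA and the CCAAT box CCAAT, each on either strand, and no 2 marked motifs overlap. H2bc18 and H2bc12 encode H2B and lie at chr3:96269550-96269699 (+ strand) and chr13:22035671-22035820 (+ strand). H2aw encodes an H2A of the cluster on chromosome 11, at chr11:58954535-58954684 (+ strand). H4c12 encodes H4, at chr13:21750554-21750703 (- strand), and the replacement gene H2az2 lies at chr11:6444444-6444593 (- strand).
H2bc18: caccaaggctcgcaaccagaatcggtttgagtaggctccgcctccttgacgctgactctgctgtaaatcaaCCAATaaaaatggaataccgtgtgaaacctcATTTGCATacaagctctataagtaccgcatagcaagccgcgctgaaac
H2bc12: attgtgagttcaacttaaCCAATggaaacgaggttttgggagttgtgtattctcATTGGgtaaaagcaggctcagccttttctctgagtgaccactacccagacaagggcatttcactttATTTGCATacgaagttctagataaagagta
H2aw: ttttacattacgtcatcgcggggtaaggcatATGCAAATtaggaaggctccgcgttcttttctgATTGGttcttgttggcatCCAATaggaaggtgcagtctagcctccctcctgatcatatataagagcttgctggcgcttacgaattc
H4c12: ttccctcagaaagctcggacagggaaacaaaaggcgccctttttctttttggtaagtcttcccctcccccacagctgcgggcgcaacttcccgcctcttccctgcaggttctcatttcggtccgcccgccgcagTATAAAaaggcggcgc
H2az2: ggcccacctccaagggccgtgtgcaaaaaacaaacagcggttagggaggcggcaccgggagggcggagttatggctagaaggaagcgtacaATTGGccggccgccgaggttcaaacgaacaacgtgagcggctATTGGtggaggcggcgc

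RefSeq windows of 250 bases before to 50 after the start were found for 23 of the 25 clustered genes and for 6 of the 7 replacement variants. The octamer, the binding motif of OCT-1 that is known from H2B promoters, occurred in 4 of 6 clustered H2B windows, 3 of 6 clustered H2A windows and none of the H1 or H4 windows. Among all 32851 windows it occurred in 1.74%. TATAAA was present in 14 of the 23 clustered windows, against 13.6% of all windows, and CCAAT in 17 of 23, against 37.4%. Of the 6 replacement windows, 0 held the octamer, 0 held TATAAA and 4 held CCAAT. Clustered H4 windows differed from the others in CCAAT, which was in 1 of 7. These are matches of letters only.

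Array medians were 5.10 to 5.13 in the Polg mutant and 5.12 and 5.13 in WT. Of 12 erythroid marker genes 10 were measured, with mean levels over the 5 arrays of 10.39 to 13.44. As a list these averaged 11.94 to 12.01 in Polg mutant arrays, against 12.33 and 12.14 in WT arrays, with every Polg mutant array below both WT arrays for 9 of the 10 genes, against 39.5% of all genes at a mean level of 10 and over. Neutrophil markers, 14 of 14 measured, averaged 8.58, 9.10 and 7.39 in the Polg mutant, against 8.27 and 7.21 in WT, so the groups overlapped. B lymphocyte markers, 8 of 9 measured, averaged 5.37, 5.06 and 4.88 in the Polg mutant, against 5.75 and 5.28 in WT, and all 8 had differences below 0. Macrophage (10 of 10), megakaryocyte (6 of 8) and T lymphocyte (6 of 8) lists averaged 5.39 to 5.63, 6.11 to 6.49 and 4.50 to 4.54 in the Polg mutant, against 5.48 on both arrays, 6.33 and 7.09, and 4.55 and 4.46 in WT. The part of these cell types in the histone values was not tested.

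WT replicate 1 stood apart from WT replicate 2 on some histone probe sets. It read over 0.5 log2 units above WT replicate 2 for 6 of the 25 clustered genes, against 2.94% of all genes. For 1 it read over 0.5 below, against 4.77%. The median of WT replicate 1 minus WT replicate 2 over the 25 was 0.05, against 0.00 over all genes. WT replicate 1 lay above the other 4 arrays for 14 of the 25, against 16.8% of all genes. That count also rises where both WT arrays exceed the Polg mutant arrays. Results that rest on this array are given with and without it.

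The comparison asks how the Polg genotype changes expression in Ter119-selected marrow cells. Clustered histone genes read lower in Polg mutant cells, with differences below 0 in 24 of 25 genes and a median of -0.25, but no single gene passed the test. Differences were below 0 in 50.6% of all genes, whose median was 0.00. At mean levels of 6 to 10 this share was 49.3%, beside 8 of 8 clustered genes. At 10 and over it was 62.2%, beside 12 of 13. The largest differences among clustered genes were those of H4c14, H2aw and H4c9, at -1.19, -1.18 and -1.06, and the single one above 0 was that of H2ac21, at 0.11. With limma, adjusted over all 22180 genes, an adjusted p under 0.05 was reached by 0 histone genes in either direction, and by 0% of all genes in each direction, and the smallest adjusted p of a histone gene was 0.225. Before adjustment, 4 clustered genes were lower and 0 higher at a p under 0.05 (H2bc21, H2ac10, H2bc18 and H2aw), beside 5.33% lower and 4.18% higher over all genes. The share lower over all genes rises with the level of a gene. At mean levels of 6 to 10 it was 10.98%, beside 2 of 8 clustered genes. At 10 and over it was 27.26%, beside 2 of 13, so the brighter clustered genes did not stand out by this count.

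Polg mutant arrays were all below both WT arrays for 10 of the 25 clustered genes and above both for 0. Over all genes this held for 9.73% and 8.36%. Of those 10 genes, H2ac12 and H4c2 lay near the floor of the arrays, at mean levels of 3.22 and 3.56, and are in neither band below. The share over all genes depends on the level of a gene, in bands chosen after the values were seen. Among genes of mean level 6 to 10, 5 of 8 clustered genes had no overlap and read lower, against 18.5% of all genes in the band. At a mean level of 10 and over the count was 3 of 13, against 39.5% of all genes in that band, so the brighter clustered genes did not stand out by this count. Median differences in these 2 bands were -0.68 and -0.20 for clustered genes, against 0.00 and -0.07 for all genes of the same bands, and that of clustered genes at 6 to 10 was -0.38 without WT replicate 1 and -1.03 without WT replicate 2. At 10 and over it was -0.19 without WT replicate 1 and -0.11 without WT replicate 2, against -0.05 and -0.10 for all genes of that band. The brighter clustered genes thus lay close to their band without WT replicate 2. Leaving out WT replicate 1, 23 of 25 clustered genes had a difference below 0 (50% of all genes) with a median of -0.33, and leaving out WT replicate 2 the count was 23 (44.8% of all genes) with a median of -0.30. In bulk samples, fewer cells of a type and less RNA per cell cannot be told apart.

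**Figure D1:**
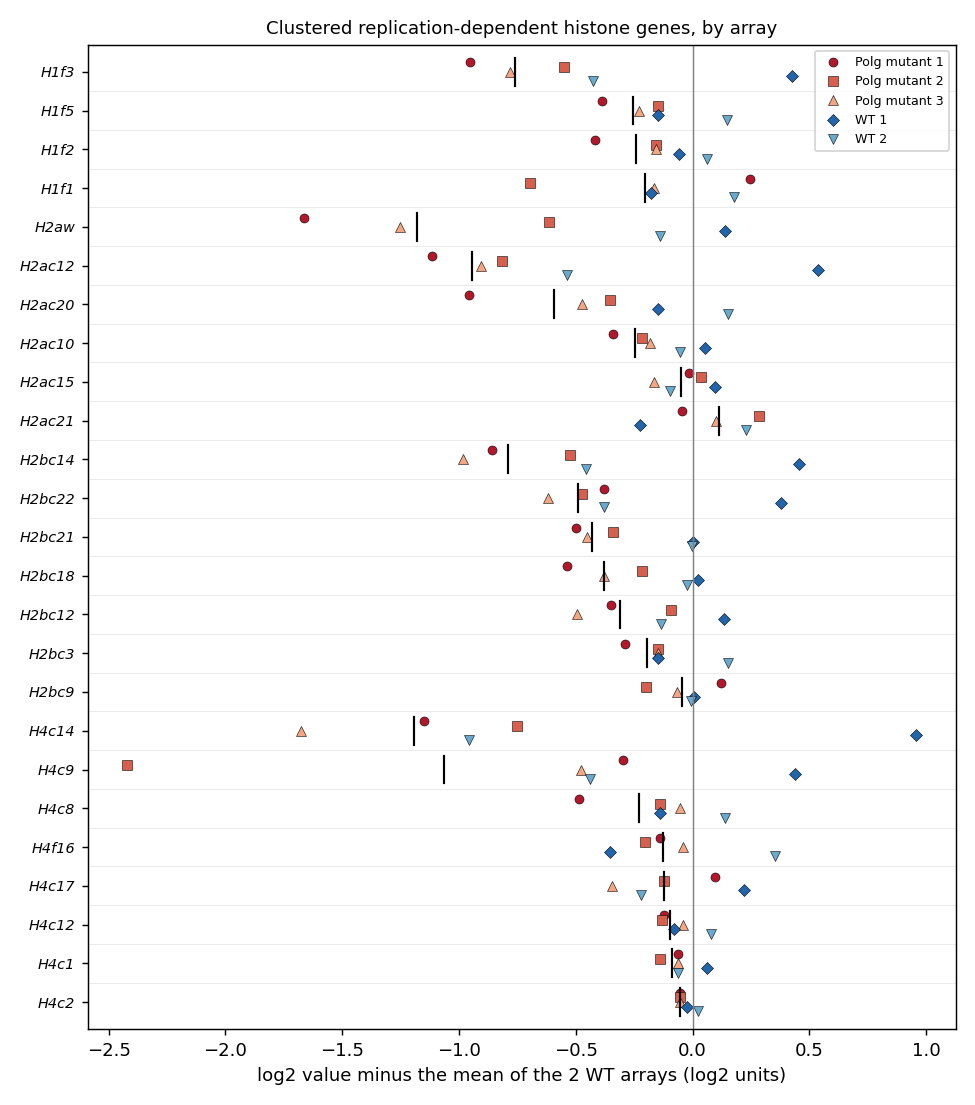
Log2 value of each clustered histone gene on each array, minus the mean of the 2 WT arrays for that gene, with Polg mutant arrays in red, WT arrays in blue and the Polg mutant mean as a black bar. The mean bar lies left of 0 for 24 of 25 genes, and WT replicate 1 sits far to the right for H1f3, H2ac12, H2bc14, H2bc22, H4c14 and H4c9.

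Genes of linker histone H1 come first. All 4 measured by a probe set of their own, H1f1, H1f2, H1f3 and H1f5, had differences below 0, with a median of -0.25 that was -0.36 without WT replicate 1 and -0.15 without WT replicate 2. H1f5, an H1 of dividing cells, read 11.78, 12.02 and 11.94 in the Polg mutant, against 12.02 and 12.32 in WT. The groups met at 12.02, and the difference was -0.25 ± 0.13 (SE, 3 Polg mutant and 2 WT arrays, limma adjusted p = 0.638). It was -0.40 without WT replicate 1 and -0.11 without WT replicate 2. H1f2 read 11.02 to 11.28 in Polg mutant arrays, all below WT at 11.38 and 11.50. H1f3 had 7.48, 7.88 and 7.65 in the Polg mutant, against 8.86 and 8.01 in WT. Its difference was -0.76 ± 0.32 (SE), and -0.33 without WT replicate 1. H1f1 spanned 9.86 to 10.80 in the Polg mutant, a wider range than the 10.38 and 10.74 of WT, and its groups overlapped.

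Genes of H2A, which pairs with H2B in the nucleosome, included the largest difference that did not rest on WT replicate 1. H2aw read 6.32, 7.37 and 6.73 in the Polg mutant, against 8.12 and 7.84 in WT. All Polg mutant arrays were below both WT arrays, the difference was -1.18 ± 0.37 (SE), or 2.26-fold lower, with a limma adjusted p of 0.463, and it was -1.04 without WT replicate 1. H2aw carries the octamer on the other strand in the sequence above. H2ac10 read 12.74, 12.86 and 12.90 in the Polg mutant, against 13.13 and 13.03 in WT, near the top of the scale. The groups did not overlap, by a narrow margin, and the difference was -0.25 ± 0.07 (SE, limma adjusted p = 0.407). H2ac20, of the cluster on chromosome 3, read 7.92 to 8.52 in the Polg mutant, against 8.72 and 9.02 in WT. H2ac21, of the same cluster, read 10.57, 10.90 and 10.72 in the Polg mutant, against 10.39 and 10.85 in WT. These overlapped, and the difference of 0.11 ± 0.19 (SE, limma adjusted p = 0.814) was -0.11 without WT replicate 1. H2ac15 had groups that overlapped too, at 10.91 to 11.12 in the Polg mutant and 11.18 and 10.98 in WT.

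All 7 clustered H2B genes had differences below 0, with a median of -0.38. H2bc21 had the smallest p of any histone gene. It read 7.79, 7.95 and 7.84 in the Polg mutant, against 8.29 on each WT array. Every Polg mutant array was lower, by a difference of -0.43 ± 0.06 (SE, limma adjusted p = 0.225), and the value was -0.43 with either WT array left out. H2bc18, in the same cluster and shown above with an octamer, read 9.90, 10.22 and 10.06 in the Polg mutant, against 10.46 and 10.41 in WT. Its groups did not overlap either, with a difference of -0.38 ± 0.11 (SE, limma adjusted p = 0.428). H2bc12 had 11.82, 12.08 and 11.67 in the Polg mutant, against 12.30 and 12.03 in WT, and H2bc3 had 11.95, 12.09 and 12.09, against 12.09 and 12.39 in WT. Both overlapped, with differences of -0.31 ± 0.16 and -0.20 ± 0.11 (SE) and a limma adjusted p of 0.638 each. Without WT replicate 1 these were -0.18 and -0.35, and without WT replicate 2 they were -0.45 and -0.05. H2bc9 differed by -0.05, with Polg mutant values of 10.36 to 10.68 on either side of WT at 10.56 and 10.55.

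Genes of H4 had a smaller median difference, -0.13 over 8 genes, all below 0. It was -0.21 without WT replicate 1 and -0.12 without WT replicate 2, with 7 of 8 below 0 in each case. H4c12 read 13.36, 13.36 and 13.44 in the Polg mutant, against 13.41 and 13.57 in WT. The groups overlapped near the top of the scale, and the difference was -0.10 ± 0.06 (SE, limma adjusted p = 0.638), or -0.18 without WT replicate 1 and -0.02 without WT replicate 2. H4f16, the H4 gene outside the main clusters, read 11.05 to 11.22 in the Polg mutant, inside the 10.90 and 11.61 of WT. Its difference was -0.13 over all arrays, -0.48 without WT replicate 1 and 0.23 without WT replicate 2. With the mean over its 2 probe sets it was -0.46. H4c17 had 10.68 to 11.12 in the Polg mutant, also overlapping WT at 11.24 and 10.81. H4c1 read 6.70 to 6.78 in the Polg mutant, against 6.90 and 6.78 in WT. H4c2 and H4c8 lay between 2.54 and 3.62 on all arrays, below the lower quartiles of the arrays, 3.95 to 4.02, where signal may be background. H4c2 gave the same value, 3.54, on all 3 Polg mutant arrays.

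The genes H1f3, H2ac12, H2bc14, H2bc22, H4c14 and H4c9 were singled out after their values were seen, because WT replicate 1 exceeded WT replicate 2 by over 0.5 on each. H4c14 read 5.47, 5.87 and 4.95 in the Polg mutant, against 7.58 and 5.67 in WT. WT replicate 2 lay among the Polg mutant arrays, and the difference of -1.19 ± 0.71 (SE) was -0.24 without WT replicate 1. H2bc14 read 5.73, 6.06 and 5.61 in the Polg mutant, against 7.05 and 6.13 in WT, and its difference of -0.79 was -0.33 without WT replicate 1. For H2bc22 the difference was -0.49 with both WT arrays and -0.11 without WT replicate 1. H2ac12, near the floor of the arrays at 2.68 to 2.98 in the Polg mutant and 4.33 and 3.25 in WT, differed by -0.95 and by -0.41 without that array. H4c9 read 8.48, 6.36 and 8.30 in the Polg mutant, against 9.22 and 8.34 in WT. There Polg mutant replicate 2 was low and WT replicate 1 high, while the other 3 arrays lay between 8.30 and 8.48. Its difference of -1.06 was -0.63 without WT replicate 1 and -0.39 without Polg mutant replicate 2.

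No clustered H3 gene had a probe set of its own, and 39 clustered histone genes in all, 12 of them H3 genes, were covered only by probe sets whose annotation lists several symbols. Such probe sets are described by family, name no gene and were not tested. There were 38 for clustered genes, of which 3 repeated another's values exactly and were counted once. Among the rest, an H2B probe set with a difference of -1.92 lists 2 symbols, not all of them of histones. Probe sets of a family largely list the same genes and are not independent. Over the 35, the median difference was -0.43, 32 were below 0, and in 19 all Polg mutant arrays were below both WT arrays, against 9.73% of all genes and 39.5% of those at a mean level of 10 and over. WT replicate 1 exceeded WT replicate 2 by over 0.5 in 17 and by over 1 in 14, and it was the highest of the 5 arrays in 27. Without WT replicate 1 the median was -0.14 and 26 were below 0, and without WT replicate 2 it was -0.88.

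The 12 H3 probe sets showed this most plainly, with median levels of 5.62, 5.66 and 5.56 on the Polg mutant arrays, against 6.71 and 5.60 on the WT arrays. WT replicate 2 thus lay near the Polg mutant arrays, and the median of the differences was -0.74 with both WT arrays and -0.10 without WT replicate 1. One probe set that lists 8 H3 genes read 6.87, 7.60 and 6.69 in the Polg mutant, against 8.95 and 6.97 in WT. Another that lists 8 symbols read 6.01, 6.32 and 6.60 in the Polg mutant, against 6.78 and 7.08 in WT, with both WT arrays higher. For H2A, H2B and H4 the medians were -0.30, -0.56 and -0.43 with both WT arrays, and -0.16, -0.19 and -0.11 without WT replicate 1. At the bright end, an H2B probe set that lists 12 symbols read 13.67, 13.75 and 13.75 in the Polg mutant, against 13.77 and 13.81 in WT, and an H4 probe set read 12.69, 12.62 and 12.66, against 12.74 and 12.77 in WT. These differences were -0.07 and -0.10.

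**Figure D2:**
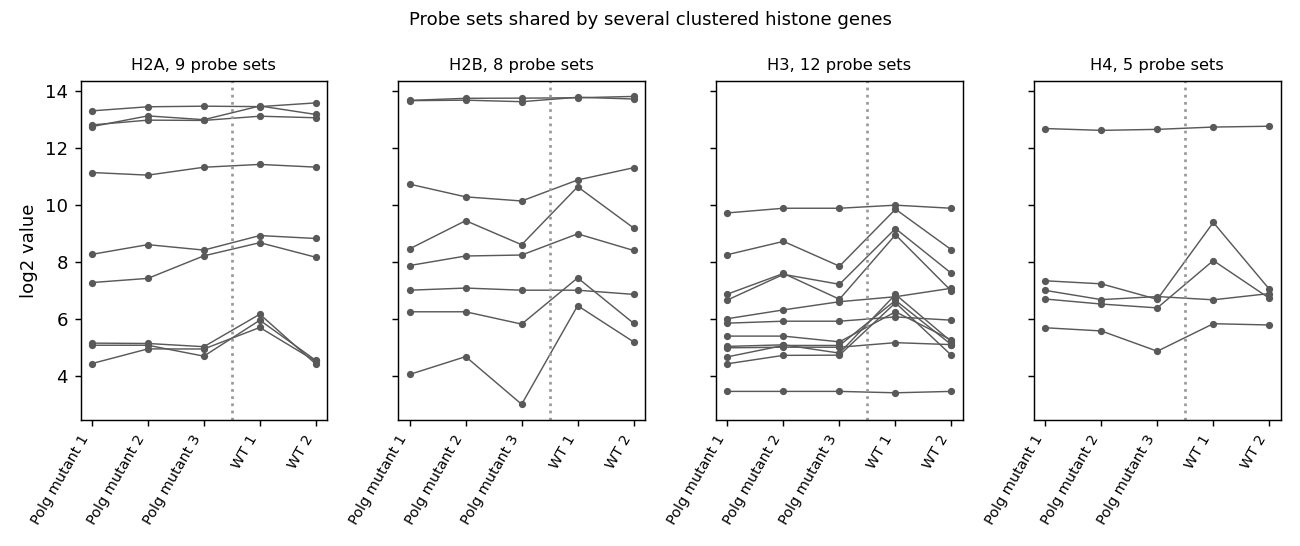
Log2 value (vertical axis) of several-symbol probe sets of clustered histone genes, with 1 line per probe set and 1 panel per family. The 3 Polg mutant arrays are left of the dotted line and the 2 WT arrays right of it. An H2B probe set that lists 2 symbols, not all of them of histones, is included. In 14 probe sets of 35, counting 1 shared by H1 and H2B genes that is not drawn, WT replicate 1 peaks over 1 log2 unit above WT replicate 2.

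Replacement variants showed a median of -0.22 over 7 genes, close to the -0.25 of the clustered genes, with a mean of -0.17 against -0.40. The closeness of the medians depended on the genes kept. Among genes with a log2 over 6 on 2 or more arrays, they were -0.06 over 5 replacement variants and -0.25 over 21 clustered genes. Those 5 include H2aj, which gave the same value on all 5 arrays. Among genes with 5 distinct values the medians were -0.24 over 4 replacement variants and -0.34 over 18 clustered genes. The difference between the classes was not tested. At an unadjusted p under 0.05 there were 1 lower and 0 higher with limma, against 5.33% and 4.18% of all genes. For lower, this was 10.98% of all genes at mean levels of 6 to 10 and 27.26% at 10 and over. In 3 of 7 every Polg mutant array was below both WT arrays, against 9.73% of all genes. The 3 were H2ax, H2az2 and H1f10, at mean levels of 12.09, 9.66 and 5.84. That share was 39.5% of all genes at 10 and over and 18.5% at 6 to 10. The median over the 7 was -0.08 without WT replicate 1 and -0.33 without WT replicate 2, so it moved with either array.

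H2az2 and H2az1 encode 2 forms of H2A.Z, a variant found around transcription start sites. H2az2 read 9.34, 9.61 and 9.45 in the Polg mutant, against 9.84 and 10.06 in WT. All Polg mutant arrays were lower, by a difference of -0.48 ± 0.12 (SE, limma adjusted p = 0.340), and the value was -0.59 without WT replicate 1. H2az1 read 7.11, 7.22 and 6.88 in the Polg mutant, against 7.03 on both WT arrays. Its Polg mutant arrays lay on both sides of WT, and the difference was 0.04 ± 0.12 (SE, limma adjusted p = 0.924). H2ax, whose protein is phosphorylated at DNA breaks and whose transcript is made in both a stem-loop and a polyadenylated form, read 11.84, 11.98 and 12.13 in the Polg mutant, against 12.20 and 12.30 in WT. The groups did not overlap, with a difference of -0.27 ± 0.10 (SE, limma adjusted p = 0.605).

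The linker variant gene H1f10 read 5.69, 5.79 and 5.78 in the Polg mutant, against 6.11 and 5.84 in WT. Its groups were separated by a margin that WT replicate 2 left narrow, and the difference of -0.22 ± 0.10 (SE, limma adjusted p = 0.638) was -0.08 without WT replicate 1. Macroh2a1 encodes a variant with a large non-histone domain. It read 9.24, 8.78 and 9.07 in the Polg mutant, against 9.36 and 8.81 in WT, and the groups overlapped fully, with a difference of -0.06 ± 0.24 (SE, limma adjusted p = 0.959) that was 0.21 without WT replicate 1 and -0.33 without WT replicate 2. Macroh2a2, its paralogue, read 4.94, 4.98 and 4.73 in the Polg mutant, against 5.25 and 4.98 in WT, with a difference of -0.23 ± 0.13 (SE, limma adjusted p = 0.638) that was -0.10 without WT replicate 1. H2aj gave the same value, 6.73, on all 5 arrays, so it carries no comparison.

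**Figure D3:**
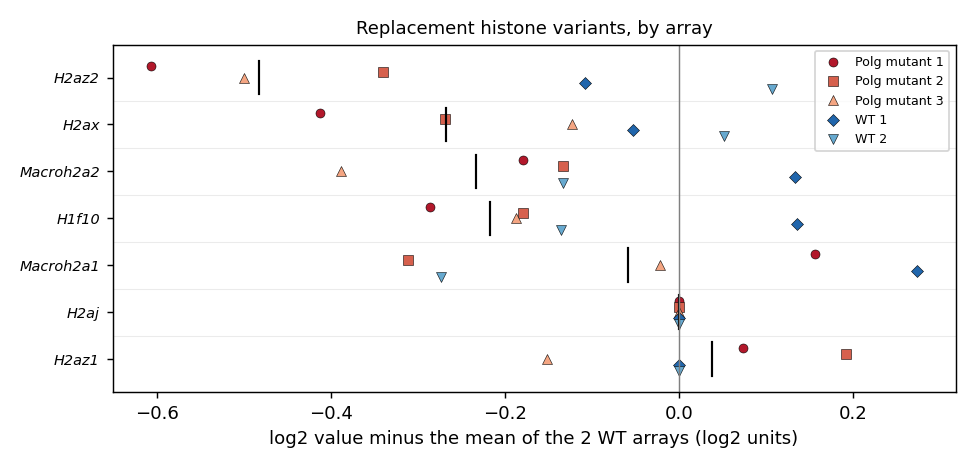
Log2 value of each replacement variant on each array, minus the mean of the 2 WT arrays, with the Polg mutant mean as a black bar. H2az2, H2ax and H1f10 have every Polg mutant array left of both WT arrays, while H2az1 and Macroh2a1 have them on both sides.

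H3.3, the replacement form of H3, had no probe set for a single symbol, and 7 probe sets list its genes together with copies. Their differences ran from -0.54 to 0.25 with a median of -0.20, below 0 in 5. Every Polg mutant array was below both WT arrays in 3 and above both in 1, against 9.73% and 8.36% of all genes. For below, the share was 18.5% of all genes at mean levels of 6 to 10 and 39.5% at 10 and over. The median was -0.10 without WT replicate 1 and -0.09 without WT replicate 2. The brightest of them read 12.53, 12.51 and 12.32 in the Polg mutant, against 12.52 and 12.51 in WT, which overlapped. Another read 11.28, 11.49 and 11.48 in the Polg mutant, against 12.11 and 11.51 in WT, where WT replicate 1 stood above the other arrays. H3.3 probe sets thus differed in direction among themselves.

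Germ cell histone genes, 16 with a probe set of their own, include the testis genes H2ac1, H2bc1 and H1f6 of the main cluster and H2al genes, most of them on the X chromosome. Their median difference was 0.02, with a range of -0.33 (H2ac1) to 0.25 (H2al1n). It was -0.05 without WT replicate 1 and 0.04 when the other WT array was left out. For 0 of 16 did the groups not overlap, against 9.73% lower and 8.36% higher over all genes. At an unadjusted p under 0.05 there were 0 in either direction with limma, against 5.33% lower and 4.18% higher over all genes. Mean levels ran from 2.18 to 7.39, and 9 of the 16 had tied values. Whether these signals exceeded background is unknown.

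**Figure D4:**
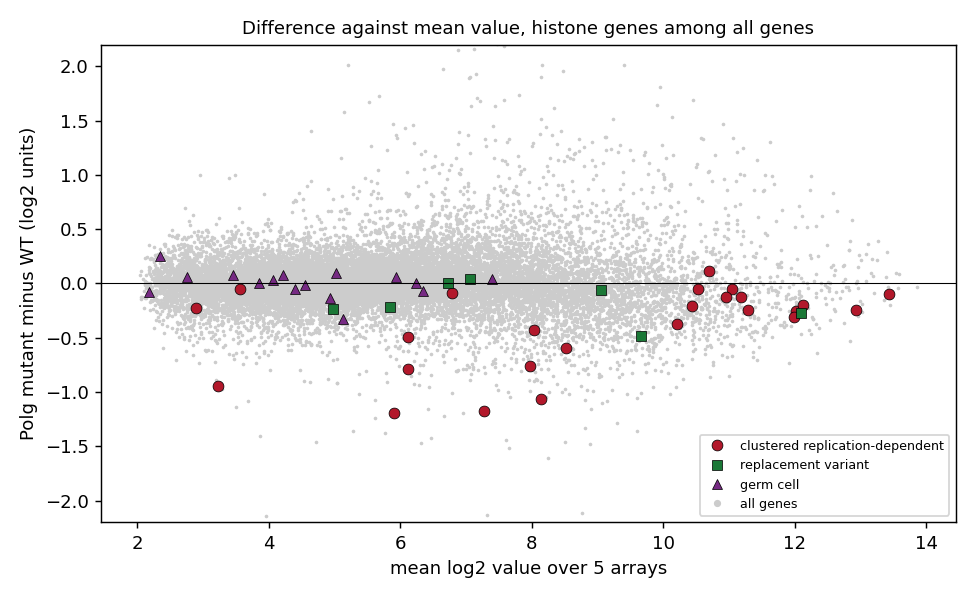
Difference, Polg mutant minus WT, in log2 units (vertical axis) against the mean log2 value over 5 arrays (horizontal axis) for all genes in grey and histone genes in colour. Clustered genes lie below 0 except for H2ac21, those at mean levels of 6 to 10 with a median of -0.68 and those at 10 and over with -0.20, and 18 grey genes lie outside the vertical axis.

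Genes that make, process and place histones were read from 4 lists, with Slbp and Mcm2 in 2 of them each. The S phase list, 32 of 35 genes measured, had a median difference of -0.32, with 25 genes lower on every Polg mutant array than on both WT arrays and 0 higher. The share over all genes was 9.73% lower and 8.36% higher, and for lower it was 18.5% at mean levels of 6 to 10 and 39.5% at 10 and over, the bands that hold these genes. As a list they averaged 9.23, 9.47 and 9.47 in the Polg mutant, against 9.72 and 9.69 in WT, and its part in the histone values was not tested. With limma 14 had an unadjusted p under 0.05, all lower, against 5.33% of all genes, and 0 passed the threshold. By this count the share over all genes was 10.98% at mean levels of 6 to 10 and 27.26% at 10 and over. Ccna2, the S phase and G2 cyclin gene, differed by -0.33 ± 0.05, and the flap endonuclease gene Fen1 by -0.47 ± 0.07 (SE). Uhrf1, whose protein recruits the maintenance DNA methyltransferase, had a difference of -0.60 ± 0.14 (SE).

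Activation and 3′ processing of histone mRNA was covered by 19 of 20 listed genes. The list also holds polyadenylation factor genes such as Wdr33, though mRNAs of clustered genes end in a stem-loop. The median was -0.10, with 8 lower and 1 higher without overlap, against 9.73% and 8.36% of all genes. Among all genes at mean levels of 6 to 10 these shares were 18.5% and 16.4%, and at 10 and over 39.5% and 19.2%. At an unadjusted p under 0.05, 5 were lower and 0 higher with limma, against 5.33% and 4.18% of all genes, and 0 passed the threshold. The share lower was 10.98% of all genes at mean levels of 6 to 10 and 27.26% at 10 and over. Slbp encodes the protein that binds the histone stem-loop, and is itself made in S phase. It was singled out after its values were seen, and read 9.87, 10.35 and 10.20 in the Polg mutant, against 10.67 and 10.60 in WT. Every Polg mutant array was lower, with a difference of -0.49 ± 0.16 (SE, limma adjusted p = 0.496). By smallest p the list was led by the zinc finger gene Zfp473, a processing factor for histone mRNA, at -0.10 ± 0.02 (SE). Zfp473 had a mean level of 4.93, below the array medians, and gave the same value, 4.89, on all 3 Polg mutant arrays. Its small SE thus rests in part on tied values. Next were the polyadenylation factor gene Wdr33 at -0.33 ± 0.06 and the exonuclease gene Eri1, which acts on the stem-loop, at -0.38 ± 0.11 (SE).

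Chaperones of replication-coupled histones, 17 of 18 measured, all had differences below 0, with a median of -0.27. In 12 every Polg mutant array was below both WT arrays, against 9.73% of all genes, or 18.5% at mean levels of 6 to 10 and 39.5% at 10 and over. With limma 8 were lower at an unadjusted p under 0.05, against 5.33% of all genes, while 0 passed the threshold. By that p the share was 10.98% of all genes at 6 to 10 and 27.26% at 10 and over. Rbbp4, a subunit of the chromatin assembly factor CAF-1, differed by -0.33 ± 0.07, the nucleosome assembly protein gene Nap1l4 by -0.17 ± 0.03 and Supt16, a subunit of the FACT complex, by -0.36 ± 0.09 (SE). Chaperones and remodellers of variant histones, 16 of 19 measured, had a median of -0.09. It was -0.02 without WT replicate 1 and -0.04 without WT replicate 2. Without overlap 6 genes were lower and 3 higher, against 9.73% and 8.36% of all genes. At mean levels of 6 to 10 these shares were 18.5% and 16.4%, and at 10 and over 39.5% and 19.2%. At an unadjusted p under 0.05, 1 was lower and 1 higher with limma, against 5.33% and 4.18% of all genes, and 0 passed. Among all genes at 6 to 10 this was 10.98% lower and 8.88% higher, and at 10 and over 27.26% and 13.75%. Ep400, a remodeller of the complex that deposits H2A.Z, differed by -0.22 ± 0.04, the helicase gene Ruvbl2 of the same complex by 0.29 ± 0.08 and Znhit1, a subunit of the related SRCAP complex, by 0.22 ± 0.09 (SE).

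**Figure D5:**
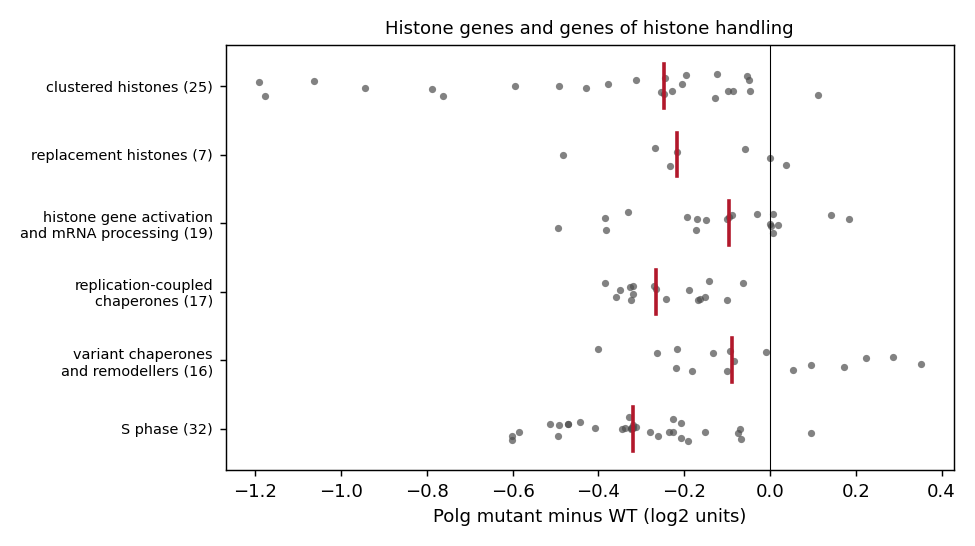
Difference, Polg mutant minus WT, in log2 units (horizontal axis) of each measured gene (points, spread vertically for view) and the median (red bar) for both histone classes and 4 lists of histone handling, with gene numbers in brackets. Medians of clustered histones, replication-coupled chaperones and S phase genes were -0.25, -0.27 and -0.32, and those of mRNA processing and variant chaperones -0.10 and -0.09.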

How the data were processed

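The authors deposited log2 expression values for 41345 probe sets, 1 column per array, with RMA and Partek 6.5 named as tools per the submitters' processing notes. Genome build: not given in the sources used here. Scanner files were not used, so signal over background is unknown, and precision is set by the number of arrays. Per the labels' protocols, 100 ng of total RNA per sample was labelled.

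No further normalization was applied to the deposited log2 values. In the platform's annotation 23521 probe sets have 1 symbol, 1814 have several and 16010 have none, and the brightest single-symbol probe set was kept per gene, for 22180 genes. The genotypes were compared in R 4.3.3 using limma 3.58.1 (lmFit and eBayes, genotype as the single term, two-sided, Benjamini-Hochberg adjustment over all genes, threshold 0.05). No dim probe set was removed. The fit was tested on simulated data. Tied values were common, in 15068 of the 22180 genes. Symbols of 103 histone genes were matched to RefSeq, of which 49 had a probe set of their own.

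Full values are given for the 5 brightest clustered and replacement genes and for up to 4 of smallest p in each direction. For other lists, up to 3 genes of smallest p are named. Members and lists were chosen with earlier results of these data known. Alternatives were renewed quantile normalization, median centring, filters on dim and tied genes, a variance trend, the mean over probe sets, a replicate block, leaving out each array, and other memberships.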

Additional observations from a re-analysis of the deposited data

How the results depend on the processing

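With no gene past the threshold in the fit reported, counts over all genes moved under several alternatives. Higher and lower genes numbered 8 and 1 after renewed quantile normalization, 6 and 5 with the filter on dim genes (a log2 over 6 on 2 or more arrays kept), and 73 and 41 among genes with 5 distinct values. Leaving out 1 array gave 0 to 713 higher and 0 to 1068 lower genes, above 0 when a WT array was left out, where the lone WT array is taken to be as variable as the Polg mutant group. Histone genes past the threshold were 0 higher under every alternative run and 0 to 1 lower, the 1 being H4c2 without WT replicate 1. The median difference of clustered genes was -0.345 among genes with 5 distinct values, -0.350 with probe sets of several histone symbols, -0.331 when identical ones counted once (chosen after seeing the data), and -0.333 to -0.235 when 1 array was left out. The median of replacement variants was -0.0587 with the filter on dim genes, while that of clustered genes stayed at -0.247. Among genes with 5 distinct values the median of replacement variants was -0.243. For replacement variants it was -0.138 without H2ax and -0.332 to -0.0815 when 1 array was left out. Among the clustered and replacement genes 8 changed sign when 1 array was left out, and the cause was not tested. Their ranges were -0.431 to 0.0394 for H1f1, -0.147 to 0.0476 for H2ac15, -0.114 to 0.340 for H2ac21, -0.0386 to 0.133 for H2az1, -0.132 to 0.0286 for H2bc9, -0.343 to 0.0948 for H4c17, -0.483 to 0.226 for H4f16 and -0.333 to 0.215 for Macroh2a1. H2aj differed by -0.00192 after renewed quantile normalization.

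The replicate numbers in the labels give 2 pairs, too few to show a pairing, and deviations of same-numbered arrays correlated at 0.19 and -0.20 across genes. With the replicate number as a block, 0 genes passed the threshold in either direction, the median was -0.28 for clustered genes and -0.156 for replacement variants, and H2ac15 differed by 0.00875.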
